A study of Homo sapiens with 2 samples.

Results

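The transcripts described here encode the proteins that fill, empty and refill the calcium store of the endoplasmic reticulum (ER) in SF-539 cells, a human glioblastoma cell line. They were the 10 genes ATP2A2, ATP2A3, ITPR1, ITPR2, ITPR3, STIM1, STIM2, ORAI1, ORAI2 and ORAI3, taken by symbol out of 58735 genes in the deposited expression table, and each symbol was found. 1 RNA library came from cells stably carrying the control vector pGIPZ-CTRL (shControl) and 1 from cells stably carrying a short hairpin RNA against FKBP9 (shFKBP9). FKBP9 encodes an ER-resident protein of the FK506-binding family. Both lines had been infected with lentivirus and selected with puromycin, and both were grown in DMEM with fetal bovine serum. The labels give passages 15 to 18 for both. The hairpin sequence, the number of clones behind each line and any second hairpin in the sequenced cells were not given in the labels.

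SERCA pumps, the products of the ATP2A genes, move calcium from the cytosol into the ER lumen, where chaperones need it to fold proteins. Inositol trisphosphate (IP3) receptors, the products of the ITPR genes, let calcium out of the store after receptor signalling. When the store empties, STIM proteins in the ER membrane cluster and open ORAI channels in the plasma membrane, and the entering calcium is pumped back into the store. Every value here is an mRNA level, and neither protein, pump activity nor calcium was measured in these libraries.

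With 1 library in each condition there was no test between the conditions and no replicate check. The libraries held 18116873 (shControl) and 17158514 (shFKBP9) fragments on genes. The targeted gene was lower in shFKBP9, with FKBP9 at 49.8 FPKM in shControl and 4.68 FPKM in shFKBP9 (fragments per kilobase of gene, scaled to library size), a log2 ratio of -3.38. All 5 mesenchymal markers reached 1 FPKM, whereas among 7 glial markers SLC1A3 and NES did so, GFAP had 43 and 29 fragments and AQP4 had 0 in both libraries. The cells are labelled epithelial glioma cells, and of 4 epithelial markers KRT8 reached 1 FPKM while CDH1 had 0 and 1 fragments. The summed levels of 6 muscle markers (0.885 and 0.636 FPKM) and 8 blood markers (0.224 and 0.112 FPKM) stayed under 1 FPKM in both.

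The start regions of 3 of the genes are shown because ATP2A2 had the highest level, ITPR1 was the member with a higher level in shFKBP9, and ORAI2 held the single match to the stress-response motifs searched. RefSeq promoter windows on GRCh38.p14 (250 bases before to 50 after a start) gave 11 windows for 7 of the 10 genes. The stretches below are on the plus strand, each the longest non-exonic run in the 250 bases before a start. They lie at chr12:110280997-110281115 for ATP2A2, chr3:4493202-4493344 for ITPR1 and chr7:102433356-102433529 for ORAI2. ATP2A2 has a further window with 57.0% GC, whose start at base 110280616 lies before the deposited gene start. The ATP2A2 and ORAI2 stretches shown lie inside the deposited spans of their genes. Capitals mark the match to the core of the unfolded protein response element.
ATP2A2: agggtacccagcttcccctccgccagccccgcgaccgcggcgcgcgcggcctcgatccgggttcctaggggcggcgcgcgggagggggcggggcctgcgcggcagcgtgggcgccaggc
ITPR1: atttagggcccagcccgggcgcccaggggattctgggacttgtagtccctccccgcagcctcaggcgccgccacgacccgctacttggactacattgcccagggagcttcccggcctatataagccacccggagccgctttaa
ORAI2: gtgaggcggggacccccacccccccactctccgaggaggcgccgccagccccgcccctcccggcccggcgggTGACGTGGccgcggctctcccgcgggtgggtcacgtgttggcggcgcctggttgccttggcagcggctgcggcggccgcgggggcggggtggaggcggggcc
The ORAI2 match, TGACGTGG, began 147 bases before the RefSeq start at base 102433575, and after the deposited gene start at base 102433106. These 8 letters, searched on both strands, occurred in 0.729% of all 35116 windows. The ER stress element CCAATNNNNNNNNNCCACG occurred in 0.0769% of windows, the ERSE-II element ATTGGNCCACG in 0.0541% and the ATF4-type element TTGCATCA in 0.866%, and none of these 3 was in the 11 windows of the 10 genes. Among the wider calcium list below, the ER stress element was found in windows of CALR, CANX and HSP90B1, the core of the unfolded protein response element in a window of AHCYL1, and the ATF4-type element in windows of AHCYL2 and INPP5B. The windows of the 10 genes had GC contents of 55.7% to 81.7%, against a median of 58.7% over all windows. A match is a string of letters only, and binding was not measured.

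None of the 10 genes passed 2-fold in either direction. Of the 12741 genes at 1 FPKM or more, 2.02% were past 2-fold higher in shFKBP9 and 2.19% past 2-fold lower, and at such shares 10 genes would mostly include none. The log2 ratio, computed as shFKBP9 over shControl after adding 0.1 to each FPKM, was below 0 for 9 of the 10 genes and above 0 for ITPR1. Its median was -0.13 over the 10 genes and -0.07 over the 9 at 1 FPKM or more, against -0.02 over all genes at that level, of which 53.3% were below 0. The 10 genes together took 19804 fragments, 0.109% of the library, in shControl and 16456 fragments, 0.0959%, in shFKBP9.

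**Figure D1:**
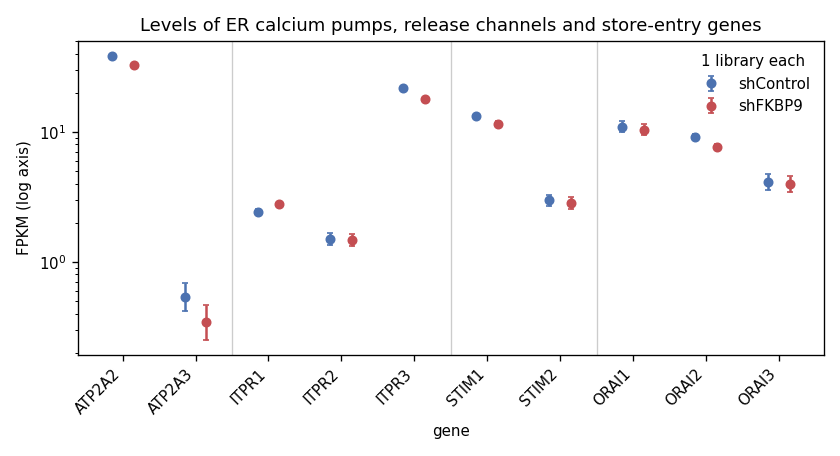
FPKM of the 10 genes on a log axis, with 1 point per library (blue, shControl; red, shFKBP9) and 95% Poisson intervals of the fragments, which cover counting error only. ATP2A2 was highest in both libraries (38.3 and 32.7 FPKM), ATP2A3 was lowest (0.537 and 0.346 FPKM), and ITPR1 is the gene whose red point lies above the blue one.

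An exact 95% interval of each ratio was computed from the fragments, for counting error only. It lay above 0 for 1 of the 10 genes (ITPR1), against 13.8% of the 17105 genes with at least 10 fragments. It lay below 0 for 5 (ATP2A2, ATP2A3, ITPR3, STIM1 and ORAI2), against 16.9% of those genes, and it included 0 for the other 4. Deeply counted genes pass this rule more often. Among genes counted as deeply as ATP2A2 the interval lay below 0 for 40.9%, and among those counted like ATP2A3 for 8.87%, so each gene was also set beside genes with between 0.5 and 2 times its fragments. Each of the 10 ratios lay inside the middle 95% of its genes of like depth.

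**Figure D2:**
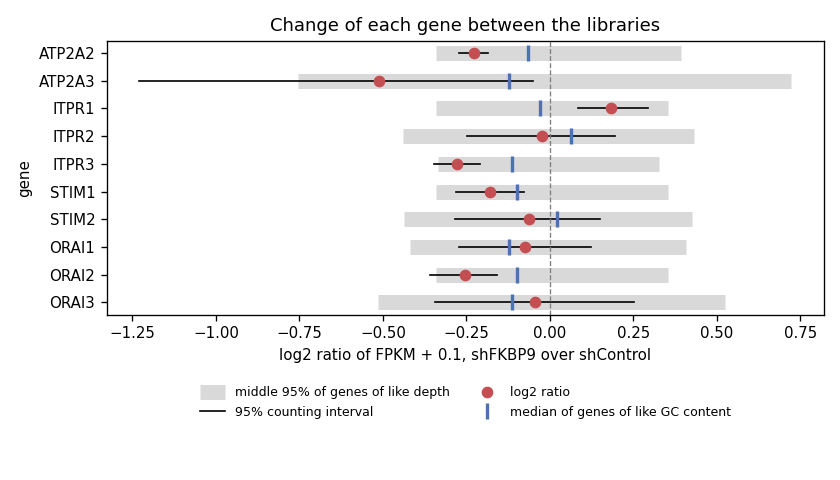
Log2 ratio of each gene (red point; shFKBP9 over shControl, FPKM + 0.1) with its 95% counting interval (black line), the middle 95% of genes of like depth (grey bar) and the median of protein-coding genes of like GC content (blue tick). Every red point lies inside its grey bar, and 9 of the 10 points lie left of 0.

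The pumps were led by ATP2A2, which encodes SERCA2, the form found in most tissues. ATP2A2 (ENSG00000174437, chr12:110280756-110351093, plus strand of hg38, 20 exons in the canonical transcript) stood at 38.3 FPKM in shControl and 32.7 FPKM in shFKBP9, from 9529 and 7717 fragments. Its log2 ratio was -0.23 (95% counting interval -0.27 to -0.18), and 8.15% of the 589 genes of like depth had a lower ratio. ATP2A3, which encodes SERCA3 (ENSG00000074370, chr17:3923870-3964464, minus strand, 21 exons), stood at 0.537 and 0.346 FPKM, from 67 and 41 fragments. Its log2 ratio was -0.51, with an interval of -1.23 to -0.05 on the fragments without the added 0.1, and at this low level it was -0.19 when 1 was added to FPKM in place of 0.1. After the GC step described below its interval included 0. ATP2A2 made up 98.62% of the summed level of the pair in shControl and 98.95% in shFKBP9. ATP2A1, the SERCA1 gene of fast skeletal muscle, was in the wider list and had 37 and 24 fragments.

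Among the IP3 receptors, ITPR3 was lower and ITPR1 higher in shFKBP9, each with a counting interval away from 0. ITPR3 (ENSG00000096433, chr6:33620365-33696574, plus strand, 58 exons) was the main form at 21.7 FPKM in shControl and 17.9 FPKM in shFKBP9, from 3882 and 3034 fragments. Its log2 ratio was -0.28 (-0.35 to -0.21), and 4.80% of the 1833 genes of like depth had a lower ratio. ITPR1, the form known for its high level in cerebellar neurons (ENSG00000150995, chr3:4493345-4847840, plus strand, 62 exons), stood at 2.42 and 2.76 FPKM, from 1423 and 1539 fragments. Its log2 ratio was 0.18 (0.08 to 0.29), and 87.0% of the 3869 genes of like depth had a lower ratio. ITPR2 (ENSG00000123104, chr12:26336515-26833198, minus strand, 57 exons) stood at 1.51 and 1.48 FPKM, and its ratio of -0.02 had an interval that included 0 (-0.25 to 0.20).

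The balance inside each family was compared as the ratio of one paralog to another, from which the gene lengths and the library sizes cancel. Of the 8 pairs among the 10 genes, the change of the ratio had an interval above 0 for 2 and an interval that included 0 for 6. No share over other gene pairs was computed, so this count is a description, and which pairs have an interval above 0 changes with the GC step described below. ITPR1 relative to ITPR3 was higher in shFKBP9 by 0.47 on the log2 scale (0.34 to 0.59), and the share of ITPR1 in the summed FPKM of the family went from 9.44% to 12.5% while that of ITPR3 went from 84.7% to 80.8%. ITPR2 relative to ITPR3 was higher by 0.25 (0.02 to 0.49), or 0.07 (-0.16 to 0.31) after the GC step. ITPR1 relative to ITPR2 differed by 0.22 (-0.03 to 0.46), or 0.31 (0.06 to 0.56) after it. Shares depend on the length used. The deposited length of ITPR1, 32454 bases over all its annotated exons, is 3.28 times the canonical transcript of 9908 bases, and per canonical length its share was 24.0% in shControl and 30.1% in shFKBP9. ITPR3 remained the largest of the family by either length.

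**Figure D3:**
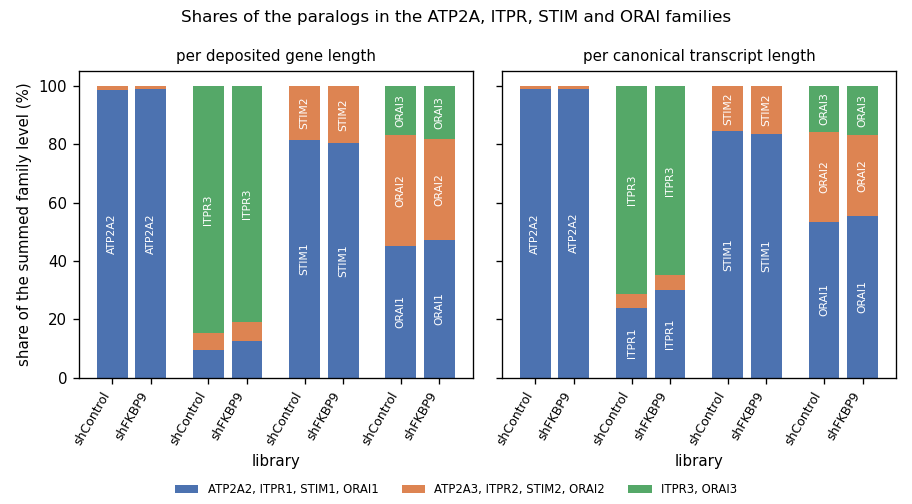
Share of each paralog in the summed level of its family (%), for both libraries, with FPKM per deposited gene length on the left and per canonical transcript length on the right. ITPR1 (the blue part of the second pair of bars in each panel) is 9.44% and 12.5% on the left and 24.0% and 30.1% on the right, and the order within each family is the same in both panels.

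The calcium sensors of the ER membrane differed little. STIM1, which senses store depletion (ENSG00000167323, chr11:3854527-4093210, plus strand, 13 exons), stood at 13.1 FPKM in shControl and 11.6 FPKM in shFKBP9, from 1694 and 1418 fragments. Its log2 ratio was -0.18 (-0.28 to -0.08), and 16.3% of genes of like depth had a lower ratio. After the GC step described below it was -0.08, with an interval that included 0 (-0.18 to 0.02). STIM2, which responds to smaller falls of ER calcium (ENSG00000109689, chr4:26857678-27025381, plus strand, 12 exons), stood at 2.97 and 2.83 FPKM, with a ratio of -0.06 (-0.28 to 0.15). STIM1 held 81.6% of the summed level of the pair in shControl and 80.4% in shFKBP9, and the ratio of STIM2 to STIM1 differed by 0.11 (-0.13 to 0.35).

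Among the channels that STIM proteins open, ORAI2 had the largest ratio in size. ORAI1, the pore-forming subunit of the store-operated channel (ENSG00000276045, chr12:121626550-121642677, plus strand, 3 exons), stood at 11.0 FPKM in shControl and 10.4 FPKM in shFKBP9, with a ratio of -0.07 (-0.27 to 0.12). ORAI2 (ENSG00000160991, chr7:102433106-102456821, plus strand, 4 exons) stood at 9.17 and 7.67 FPKM, from 1844 and 1462 fragments. Its ratio was -0.26 (-0.36 to -0.16), and 7.04% of the 3606 genes of like depth had a lower one. ORAI3 (ENSG00000175938, chr16:30949066-30956461, plus strand, 2 exons) stood at 4.12 and 3.99 FPKM, with a ratio of -0.04 (-0.34 to 0.25). ORAI1, ORAI2 and ORAI3 held 45.2%, 37.8% and 17.0% of the summed level of the family in shControl and 47.2%, 34.8% and 18.1% in shFKBP9. None of the 3 ratios between them changed by more than its counting interval, and that of ORAI1 to ORAI2 differed by 0.18 (-0.04 to 0.40).

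By FPKM the order in both libraries was ATP2A2, ITPR3, STIM1, ORAI1, ORAI2, ORAI3, STIM2, ITPR1, ITPR2 and ATP2A3. In shFKBP9 the 95% Poisson intervals of STIM1 (11.0 to 12.2 FPKM) and ORAI1 (9.41 to 11.5 FPKM) overlapped, as did those of STIM2 (2.54 to 3.15 FPKM) and ITPR1 (2.63 to 2.90 FPKM), so these neighbours did not differ beyond counting error there. In shControl the intervals of STIM2 (2.67 to 3.28 FPKM) and ITPR1 (2.30 to 2.55 FPKM) did not overlap. Per canonical transcript length ITPR1 moved from place 8 to place 6 in shControl and to place 5 in shFKBP9, and in shFKBP9 STIM1 (19.8) stood above ITPR3 (19.5).

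Some of these levels rest on reads that other genes could share. 52.9% of the exon bases of ORAI3 lie in exons of another gene on the same strand, ENSG00000261487, which had 1 and 0 fragments, and how reads in shared exons were assigned is not given in the sources used here. 10.4% of the exon bases of ITPR3 overlap UQCC2 on the opposite strand, which had 955 and 987 fragments and a log2 ratio of 0.12 (-0.01 to 0.25). 5.29% of those of ORAI2 overlap ALKBH4 on the opposite strand, which had 290 and 240 fragments. ATP2A2, ATP2A3, STIM2 and ORAI1 shared no exon base with another gene.

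The ratio between the libraries moved with GC content. Over 10329 protein-coding genes at 1 FPKM or more, its median went, in 10 bins of equal size, from 0.15 in the bin of lowest GC content to -0.12 in the bin of highest. The transcripts of the 10 genes ranged from 42.0% (ITPR2) to 65.8% (ORAI1) GC. After the median of its bin was subtracted, a step chosen after the data were seen, ITPR1 was at 0.21 and ATP2A2, ITPR3 and ORAI2 were each at -0.16. ATP2A3 was then at -0.39, STIM2 and ITPR2 were at -0.08 and -0.09, and ORAI1 (0.05) and ORAI3 (0.07) lay above 0. The counting interval then stayed below 0 for 3 genes (ATP2A2, ITPR3 and ORAI2) and above 0 for ITPR1, while those of ATP2A3 and STIM1 included 0. ITPR1 relative to ITPR3 was then higher by 0.38 (0.26 to 0.51). What made the ratio move with GC content was not tested.

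**Figure D4:**
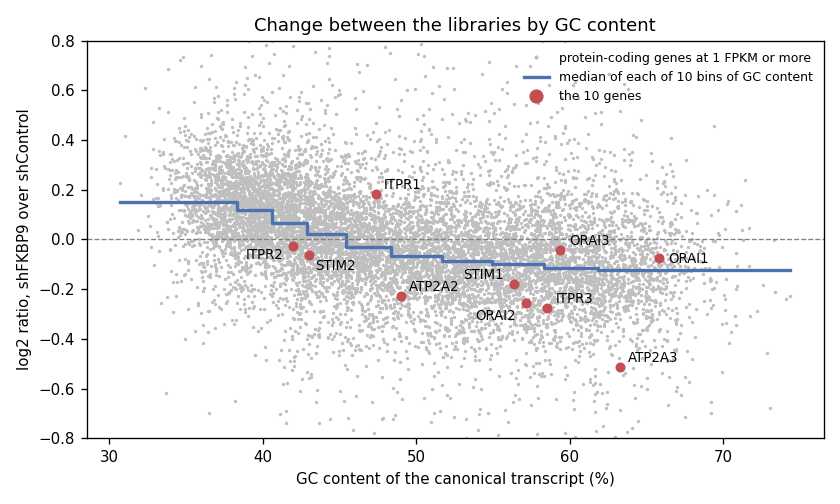
Log2 ratio (shFKBP9 over shControl) against GC content of the canonical transcript (%), for 10329 protein-coding genes (grey; 87 lie outside the plotted range of -0.8 to 0.8), with the median of each of 10 bins of GC content (blue line) and the 10 genes (red). The blue line falls from 0.15 to -0.12, and ITPR1 lies above it while ATP2A2, ITPR3 and ORAI2 lie below it.

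A wider list of 146 genes that handle or read calcium was set beside the 10 genes, in 12 groups by role. 92 reached 1 FPKM, none was past 2-fold in either direction, and of 113 with at least 10 fragments the interval lay above 0 for 35, below 0 for 26 and included 0 for 52. The shares over all genes were 2.02% and 2.19% past 2-fold, and 13.8% above 0 and 16.9% below 0 by the interval. The 113 genes were counted more deeply than the table, with a median of 994 fragments against 500. Among the 4506 genes of like depth to ORAI1 the interval lay above 0 for 17.4% and below 0 for 18.8%. Among genes of like depth to ATP2A2 it lay above 0 for 32.9% and below 0 for 40.9%, so no single share fits the list. The group counts that follow are of few genes and are descriptions to be read against these shares. The median ratio over the list was 0.00. After the median of the GC bin was subtracted the interval lay above 0 for 32 and below 0 for 27, and JPH2 was past 2-fold (1.003).

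Of 9 other calcium pumps and exchangers with at least 10 fragments, a group that holds ATP2A1 and the SLC8A and SLC24A exchangers beside the plasma membrane and Golgi pumps, the interval lay above 0 for 2, below 0 for 2 and included 0 for 5. After the GC step it lay above 0 for 1 and below 0 for 2. ATP2B2, called below 0, had 28 and 11 fragments and was under 1 FPKM in both libraries. ATP2B4, a plasma membrane calcium pump, stood at 46.3 FPKM in shControl and 25.7 FPKM in shFKBP9, from 8153 and 4297 fragments, a log2 ratio of -0.84 (-0.90 to -0.79). ATP2B1, the widely expressed form of the same pump, stood at 12.8 and 16.4 FPKM, a ratio of 0.35 (0.27 to 0.44), or 0.20 after the GC step. The ratio of ATP2B1 to ATP2B4 was higher in shFKBP9 by 1.20 (1.10 to 1.30), or 1.02 (0.93 to 1.12) after the GC step. Both genes were named for the size of their ratios, which have opposite signs, so this interval adds no further evidence.

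Of the ER calcium buffers, the abundant lumenal chaperone CALR was at 757 and 756 FPKM, and its ratio of 0.00 had an interval of -0.02 to 0.02, while after the GC step it was 0.09 (0.06 to 0.11). HSP90B1, the ER form of HSP90, was at 186 and 222 FPKM (0.25, interval 0.22 to 0.28), and CLGN, a relative of calnexin, was at 3.46 and 5.18 FPKM (0.57). Of 6 buffers with at least 10 fragments the interval lay above 0 for 2 and below 0 for 1, against 13.8% and 16.9% over all genes, and after the GC step above 0 for 3 and below 0 for 2. TMX1, an ER thioredoxin-like protein known to act on SERCA2, was at 18.0 and 21.0 FPKM (0.23, interval 0.12 to 0.33), and after the GC step its ratio was 0.08 (-0.02 to 0.18). HAX1, which binds the SERCA regulator phospholamban, was at 40.7 and 37.9 FPKM (-0.10), with an interval of -0.21 to 0.003. After the GC step the HAX1 ratio was -0.01 (-0.12 to 0.09).

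The other release route, the ryanodine receptors, was hardly expressed. RYR1, RYR2 and RYR3 had 4, 31 and 69 fragments over both libraries. Of their partners, JPH2, a junctophilin that tethers the ER to the plasma membrane, was at 1.24 and 2.40 FPKM from 133 and 245 fragments (0.90, interval 0.65 to 1.27). ASPH, whose locus also encodes junctin and junctate, was at 21.3 and 29.1 FPKM (0.44). FKBP1A, which binds ryanodine receptors and is of the same protein family as FKBP9, was at 50.6 and 56.9 FPKM (0.17, interval 0.09 to 0.25). A group of calcium leak genes was listed together with the TMBIM family, whose members are not all in the ER. Of the family, TMBIM4, known from the Golgi, was at 1.24 and 2.25 FPKM (0.81), and GHITM, of the inner mitochondrial membrane, was at 138 and 130.0 FPKM (-0.08, or -0.15 after the GC step). In the group as a whole the interval lay above 0 for 5 of 11 genes and below 0 for 2, against the same 13.8% and 16.9%, and after the GC step above 0 for 4 and below 0 for 3. TRPM8, a cold-sensing channel, was at 1.07 and 1.40 FPKM (0.36).

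Of 9 genes of IP3 production with at least 10 fragments, the interval lay below 0 for 3 and above 0 for 1, against 16.9% and 13.8% over all genes. The gene above 0 was PLCG2, with 2 and 10 fragments. PLCG1, a phospholipase C activated by receptor tyrosine kinases, was at 18.9 and 15.2 FPKM (-0.31), and PLCD3 was at 6.43 and 4.56 FPKM (-0.49). PLCB3, a phospholipase C activated by G proteins, was at 19.0 and 17.4 FPKM (-0.13), and its interval included 0 after the GC step (-0.11 to 0.09). Of 11 genes of IP3 removal the interval lay below 0 for 3 and above 0 for 2. The inositol monophosphatase IMPA2 was at 32.5 and 24.9 FPKM (-0.39) and IMPA1 at 5.33 and 7.27 FPKM (0.44, or 0.29 after the GC step). INPP5J, below 0, had 29 and 11 fragments, and INPP1, above 0, had 24 and 46. Of 15 IP3 receptor partners the interval lay below 0 for 5 and above 0 for 3. IRAG2, below 0, had 9 and 1 fragments. After the GC step the counts were the same, but the genes above 0 were ITPRIPL2, ERLIN1 and GRINA in place of ITPRID2, RNF170 and HSPA9. AHCYL2, a homologue of the IP3 receptor binding protein IRBIT, was at 2.62 and 1.66 FPKM (-0.63). ITPRIPL1 was at 1.32 and 0.901 FPKM (-0.50), and GRINA, the most abundant of the group, was at 50.8 and 50.1 FPKM (-0.02), or at a ratio of 0.10 (0.02 to 0.19) after the GC step.

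The regulators of STIM and ORAI had the interval above 0 for 9 of 15 genes and below 0 for 2. CAV1, the coat protein of caveolae, was at 288 and 350 FPKM (0.28, interval 0.25 to 0.30), and HOMER2, a scaffold protein, was at 1.26 and 1.84 FPKM (0.51). UNC93B1 was at 21.5 and 17.1 FPKM (-0.32, or -0.20 after the GC step). SARAF, which turns store entry off, was at 70.9 and 69.2 FPKM, with an interval of -0.10 to 0.03. Of the TRPC channels TRPC1 alone reached 1 FPKM, at 2.80 and 2.15 FPKM (-0.37).

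Downstream of store entry, calcium activates the phosphatase calcineurin and through it NFAT. RCAN1, an inhibitor of calcineurin and itself a target of NFAT, was at 14.5 and 19.5 FPKM (0.43, interval 0.35 to 0.52), and its relative RCAN2 was at 1.99 and 3.33 FPKM (0.71). RCAN3 was at 2.47 and 2.44 FPKM (-0.02). Of the catalytic subunits of calcineurin, PPP3CA was at 7.03 and 8.76 FPKM (0.31, interval 0.17 to 0.47) and PPP3CB at 9.42 and 11.3 FPKM (0.26, interval 0.13 to 0.40). The remaining catalytic subunit, PPP3CC, was at 9.51 and 9.95 FPKM (0.06), with an interval that included 0 (-0.12 to 0.25). Of the NFAT factors, NFATC2 was at 1.83 and 1.34 FPKM (-0.42, interval -0.72 to -0.17) and NFATC3 at 2.83 and 2.37 FPKM (-0.25, interval -0.46 to -0.06). NFATC4 was at 10.3 and 9.87 FPKM (-0.06, interval -0.17 to 0.04, or 0.05 after the GC step), while NFATC1 had 0 fragments in both libraries. Of 10 genes of the group with at least 10 fragments the interval lay above 0 for 4 and below 0 for 2, with 13.8% and 16.9% over all genes. Of 13 genes of mitochondrial calcium uptake it lay above 0 for 3 and below 0 for 4, and after the GC step above 0 for 2 and below 0 for 4. VDAC1, a channel of the outer mitochondrial membrane, was at 143 and 155 FPKM (0.11). SLC8B1, the mitochondrial sodium-calcium exchanger, was at 4.08 and 3.18 FPKM (-0.35). MICU3, a regulator of the mitochondrial uniporter, was at 1.03 and 1.37 FPKM (0.37), with an interval that included 0 (-0.02 to 0.83). After the GC step the MICU3 ratio was 0.23 (-0.17 to 0.68).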

How the data were processed

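RNA of 1 shControl and 1 shFKBP9 library of SF-539 cells was sequenced. The authors aligned paired reads to hg38 with HISAT2 2.0.5, counted them with featureCounts 1.5.0-p3 and deposited FPKM for each gene. The submitters' processing notes also name edgeR. Each FPKM times gene length was a whole multiple of the smallest such value in its library (100% of values above 0, tolerance 1e-06), which gave fragments. 1 fragment on 1 kilobase is 0.0552 (shControl) or 0.0582 FPKM (shFKBP9).

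Log2 ratios used FPKM + 0.1, which moves those of genes at low levels toward 0. The intervals of ratios used the fragments without this addition. A gene was past 2-fold with a log2 ratio beyond 1 or -1 and 1 FPKM or more in one of the libraries. The 95% intervals of ratios (Clopper-Pearson, exact) needed at least 10 fragments and cover counting error only, as do the Poisson intervals of levels. Exons, lengths and GC content came from the canonical transcripts of GENCODE release 44. Fragment recovery, ratios and intervals were tested on simulated data (Python 3.11.15, numpy 2.4.6, pandas 2.3.3, scipy 1.17.1). Genes of the wider list were named by rule. In each role group these were the gene of highest FPKM and the 2 of largest ratio in size. The latter were taken among genes at 1 FPKM or more in either library with at least 50 fragments. ATP2A1, RYR1, RYR2, RYR3, SARAF, RCAN3, PPP3CA, PPP3CB, PPP3CC and the NFAT genes were added after their values were seen. So were other genes named for few fragments or for a change under the GC step. The 10 genes and all lists were chosen with earlier results of these data known.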

Additional observations from a re-analysis of the deposited data

How the results depend on the processing

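No replicate could be left out and no paired analysis was possible because each condition had 1 library. Adding 1 or 0.01 in place of 0.1, median-ratio scaling and TPM turned the sign of none of the 10 ratios, with the largest move at ATP2A3 (from -0.51 to -0.19 when 1 was added), and the counts past 2-fold stayed at 0 under these and under other minimum levels. Median-ratio scaling or summed fragments as library size left 5 of the 10 genes with an interval below 0, and a 99% interval left 4. Subtracting the median of the GC bin, chosen after the data were seen, left 3 (ATP2A2, ITPR3 and ORAI2), and ORAI1 and ORAI3 turned to above 0. Under that step 1 gene of the wider list, JPH2, was past 2-fold higher, against 0 without it. The median of the 10 genes was then -0.09, and without that step it was -0.07 over the 9 genes at 1 FPKM or more. By share of fragments, which ignores length, ORAI2 was the largest of its family (74.1% in shControl) in place of ORAI1. Depth limits ATP2A3 most, with 108 fragments in all.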
